A study of Mus musculus with 6 samples.

Results

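The 31 genes described here are markers of leukocytes, measured in preparations of mouse pancreatic islets. They are 3 pan-leukocyte genes, 16 macrophage genes, 5 genes of MHC class II antigen presentation and 7 lymphocyte genes. They were taken from the count table by symbol, and the rule used no measured value. All 31 symbols had a row among the 46983 rows of the table, of which 23293 had at least 1 count. RNA was measured in isolated islets of wild-type mice kept for 24 h in CMRL medium at low (non-stimulating) glucose or at high (stimulating) glucose, with 3 libraries in each group. Genotype, medium and culture time were the same in both groups, and the contrast bears on how islets respond to glucose. Strain, age, animals per library and the glucose concentrations are not given in the sources used here.

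Islets are clusters of endocrine cells that also house a small resident population of leukocytes, most of them macrophages. Macrophages are phagocytic cells that are maintained by signalling through the receptor Csf1r, sense bacterial products with Cd14, and produce the complement component C1q. MHC class II molecules are pairs of an alpha and a beta chain that assemble with the invariant chain Cd74 and present peptides to helper T cells; macrophages, dendritic cells and B cells carry them. B cells sense antigen through an immunoglobulin receptor coupled to Cd79a and Cd79b, and plasma cells, which derive from B cells, secrete immunoglobulin that the J chain can link into polymers.

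MHC class II genes share a promoter module, an X box followed by a Y box, on which the coactivator Ciita acts, and these stretches are shown because the class II genes had among the most abundant member transcripts and are treated as 1 unit below. In RefSeq promoters (GRCm38.p6; 250 bases before to 50 bases after the start), 21 of the 31 members had an entry. The letters CTNGNAACT, as part of the X box, occurred on either strand in 4.10% of all 32851 promoters, and GATTGG, the core of the Y box, in 16.1%. The ordered pair, with at most 40 bases between, occurred in 12 promoters (0.0365%), among them those of the members H2-Aa and H2-Eb1 and of H2-DMb1, 3 of the 14 class II pathway genes with an entry. The letters were chosen after these promoters had been read, so the share is a description; a match is not a measured site, and the absence of one says only that these letters are not in the window. Each sequence is given 5′ to 3′ on the gene's own strand, with the X and then the Y letters in capitals.
H2-Aa (chr17:34287859-34287915, minus strand): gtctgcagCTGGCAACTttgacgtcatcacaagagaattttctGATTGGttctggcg
H2-Eb1 (chr17:34305765-34305820, plus strand): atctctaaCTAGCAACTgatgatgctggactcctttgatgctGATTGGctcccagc
H2-DMb1 (chr17:34153086-34153142, plus strand): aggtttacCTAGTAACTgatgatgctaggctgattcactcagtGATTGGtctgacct
The X letters begin 84, 94 and 97 bases before the start site, respectively, and the gap between the pair is 26, 25 and 26 bases, so the spacing differed by a single base between these genes.

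The libraries held 10596020 to 15846235 counts. Acinar genes, the digestive enzymes of the surrounding exocrine tissue, took 48.0% to 63.8% of the counts at low and 12.4% to 24.6% at high glucose, and 17 of the 20 on the list fell. Hormone and granule genes took 2.29% to 4.85% and 3.90% to 10.4%, so that endocrine transcripts were present in every library but were a minor share of it. Whether the leukocyte transcripts came from within islets or from other tissue in the preparations was not measured. Counts of the members made up 0.189%, 0.101% and 0.108% of low 1 to 3 and 0.232%, 0.0318% and 0.0709% of high 1 to 3, where each library is named by its group and replicate number. High 1 had the highest hormone and the lowest acinar share of all 6 libraries. Low 1 differed from its own group in the same way, with the highest hormone (4.85%) and the lowest acinar share (48.0%) at low glucose. Levels below are counts scaled to a library of 1e+06 (CPM) with TMM, a method that sets library sizes so that most genes do not move.

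At high glucose 2 of the 30 members that could be tested rose (Cd14 and Cd68) and 6 fell (Mrc1, Cx3cr1, Aif1, C1qa, Jchain and Igkc). Among all 13996 genes tested with edgeR's quasi-likelihood test at an adjusted p under 0.05, 13.3% were called higher and 14.2% lower. Cx3cr1 and Aif1 passed the filter for low counts only through the low glucose libraries, the group where they were high. The 6 decreases are therefore not read against the share of all genes. The median log2 fold change (high minus low glucose) of the tested members was -1.26, and that of all genes was 0.01. Of the 30, 27 had a log2 fold change below 0, against 49.2% of all genes, but with library totals in place of TMM only 15 did. The 2 groups of libraries did not overlap in CPM for 15 of the 30 tested members (2 higher and 13 lower), and they did not overlap for 45.9% of all tested genes. Nkg7, which was not tested, was also lower without overlap. In these bulk samples, fewer cells of a type and less RNA per cell cannot be told apart.

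**Figure D1:**
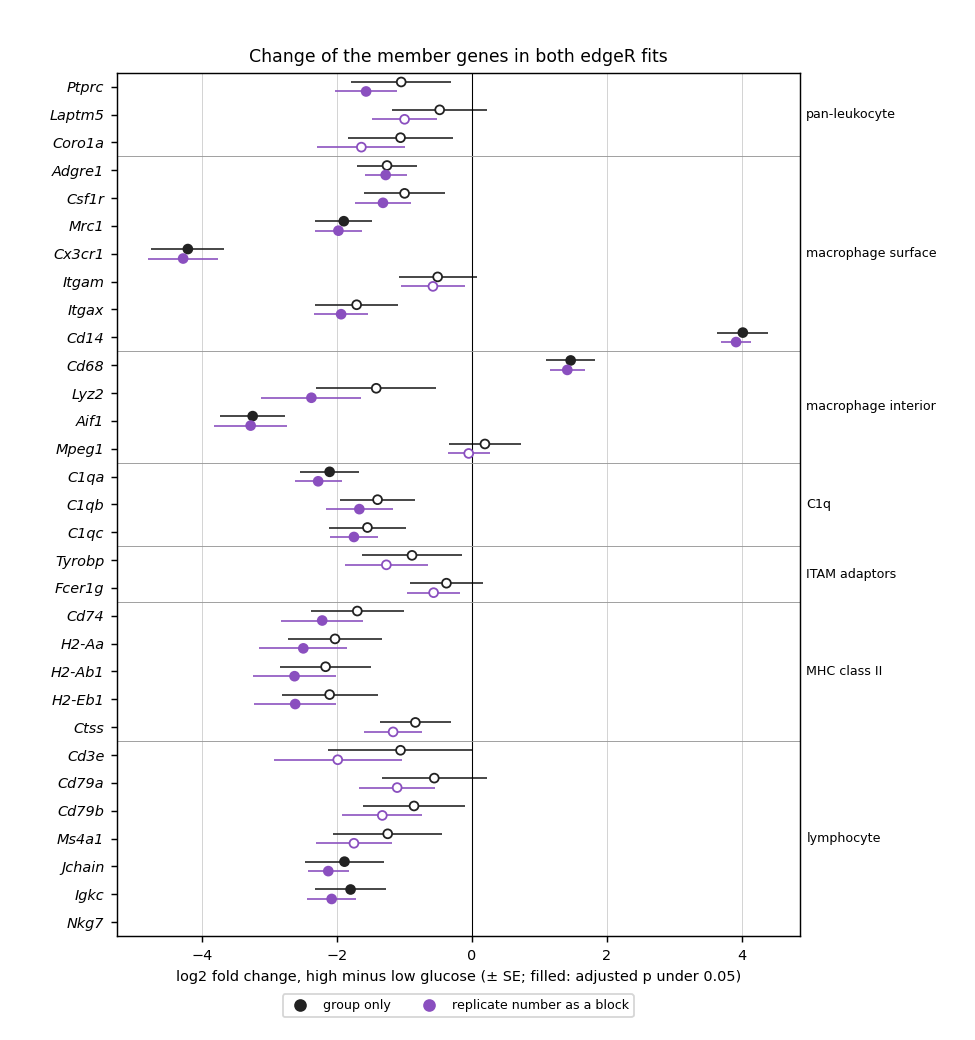
Log2 fold change (high minus low glucose, horizontal axis, bars ± SE) of each tested member (rows, grouped by role) in 2 edgeR fits, by group only (black) and with the replicate number as a block (purple), filled where the adjusted p was under 0.05. Cd14 and Cd68 lie to the right of 0 in both, 6 members are filled on the left by group only and 17 with the block, and Nkg7 was not tested.

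The members' levels differed between the high glucose libraries in a common order. Replicate 1 had the highest CPM of the 3 high glucose libraries for 29 of the 31 members, and replicate 2 had the lowest for 28. The median log2 ratio of high to low glucose between libraries of the same number, with 0.5 CPM added to each, was -0.24 for number 1, -2.30 for number 2 and -1.76 for number 3. In all 3 numbers the high glucose library was lower for 20 members and higher for 2, and 9 members were lower in numbers 2 and 3 but higher in number 1. Without high 1, 22 members fell, where 20.5% of all genes were called lower (19.8% higher), and the median was -2.36.

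Same-numbered libraries deviated from their group means together, with correlations of 0.25 to 0.40, and the fit blocked by number called 2 members higher and 17 lower, with a median of -1.71. That fit called 15.7% of all genes higher and 17.7% lower. DESeq2 called 2 members higher and 14 lower (15.6% and 16.8% of all genes). With library totals, 59.6% of all genes were called higher and 4.49% lower, and the members' calls were 2 higher (Cd14 and Cd68) and 2 lower (Cx3cr1 and Aif1). The median of all genes moved to 1.16 with that scaling and the members' median to -0.04, and 27 of the 30 tested members lay below the median of all genes.

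**Figure D2:**
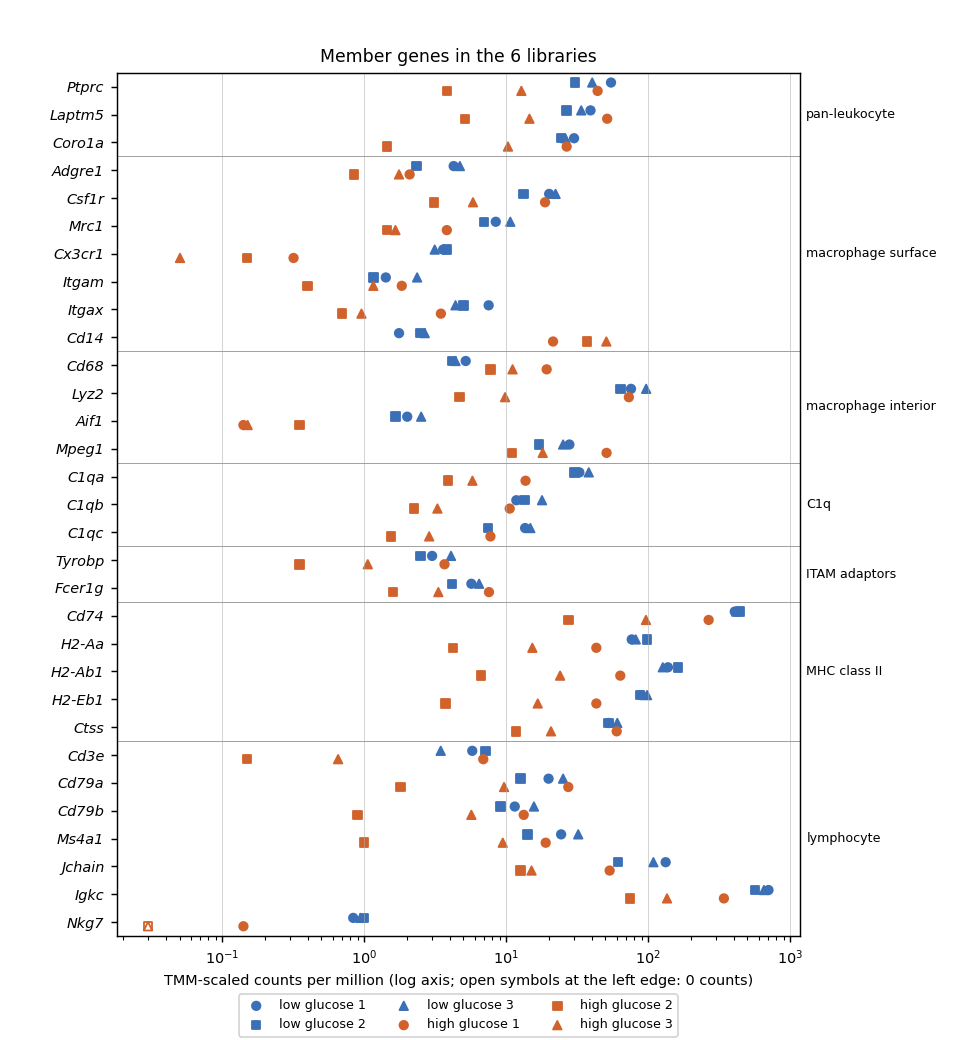
TMM-scaled CPM (horizontal log axis) of each member (rows, grouped by role), with 1 symbol per library (blue for low and orange for high glucose; circle, square and triangle for replicates 1, 2 and 3; open symbols at the left edge for 0 counts). The blue symbols of a member lie close together, the orange circle (high 1) lies nearest to them for most members, and Cd14 and Cd68 have all orange symbols to the right.

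Genes carried by nearly all leukocytes did not pass the edgeR test, nor DESeq2 or limma-voom, and none of the 3 had an unadjusted p under 0.05. Without high 1 all 3 passed the edgeR test, with log2 values of -2.34 for Ptprc, -1.76 for Laptm5 and -2.20 for Coro1a (adjusted p 0.00962, 0.0145 and 0.0337). Without high 2 none passed, and the values were -0.55, 0 and -0.53 in the same order. With both replicate 1 libraries left out, Coro1a did not pass (log2 -2.11, edgeR adjusted p 0.0728). Ptprc encodes the surface phosphatase CD45 that defines leukocytes; its level was 54.8, 30.6 and 40.4 CPM in low 1 to 3 and 44.1, 3.84 and 12.8 CPM in high 1 to 3. High 1 lay within the low glucose range, and high 2 and high 3 lay below every low glucose library. The log2 fold change was -1.05 ± 0.74 (SE) with an edgeR adjusted p of 0.322, and -1.57 with an adjusted p of 0.0392 under the block. Coro1a, an actin regulator of leukocytes, had 30.1, 24.4 and 26.1 CPM at low and 26.7, 1.45 and 10.3 CPM at high glucose (log2 -1.06 ± 0.78, edgeR adjusted p 0.343). Laptm5, a lysosomal membrane protein of blood cells, had a log2 fold change of -0.48 ± 0.70. Coro1a overlaps Bola2 on the other strand, and without a stated strand setting their reads cannot be told apart.

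Among the 7 macrophage surface genes, Cd14 rose, Cx3cr1 and Mrc1 fell, and 4 did not pass. Cd14, the co-receptor for bacterial lipopolysaccharide, had 1.76, 2.49 and 2.67 CPM in low 1 to 3 and 21.4, 37.2 and 50.8 CPM in high 1 to 3 (2.31 ± 0.485 against 36.5 ± 14.7, SD, n = 3 each). The groups did not overlap, and here high 1 was the lowest of its group, the reverse of the order seen in most members. High 2 had 746 counts of Cd14 and 77 of Ptprc. Which cells carried the Cd14 transcript was not measured, so the increase is not assigned to macrophages. The log2 fold change was 4.01 ± 0.38 with an edgeR adjusted p of 0.00106, the largest increase among the members. Within matched numbers the log2 ratio was 3.28, 3.66 and 4.02. The call held in each alternative fit, with log2 values from 3.70 to 5.14.

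Cx3cr1, the receptor for the chemokine fractalkine and a marker of resident macrophages, had 43, 23 and 20 counts in low 1 to 3 and 9, 3 and 1 counts in high 1 to 3. In CPM these were 3.60, 3.82 and 3.14 against 0.318, 0.150 and 0.0504 (3.52 ± 0.346 and 0.173 ± 0.135, SD, n = 3 each), so every high glucose library, high 1 included, was far below the low glucose libraries. It fell by 4.21 ± 0.54 on the log2 scale (edgeR adjusted p 0.00223) and by 3.04 to 5.01 over the alternatives, all of which kept the call. Cx3cr1 lies on chromosome 9 (119901616 to 120069879, minus strand, GRCm38), and its annotated span overlaps other genes, among them Wdr48, Gorasp1 and Csrnp1, with which it could share reads.

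Mrc1, the mannose receptor of tissue macrophages, lies on chromosome 2 (14229392 to 14332057, plus strand). Its levels were 8.45, 6.98 and 10.7 CPM at low and 3.82, 1.45 and 1.66 CPM at high glucose, with no overlap (8.71 ± 1.87 and 2.31 ± 1.31, SD, n = 3 each). It fell by 1.90 ± 0.42 on the log2 scale with an edgeR adjusted p of 0.0157. This call was lost without low 1 (-1.91), low 3 (-1.71) or high 3 (-1.70), and with library totals (-0.67).

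The other 4 surface genes had values below 0 that did not pass. Adgre1, an adhesion receptor that is a classic macrophage marker, had 4.27, 2.33 and 4.72 CPM at low and 2.09, 0.849 and 1.76 CPM at high glucose (log2 -1.26 ± 0.44, edgeR adjusted p 0.0698). Its groups did not overlap, and its matched ratios of -0.88, -1.07 and -1.20 were close to one another. Itgax, an integrin of dendritic cells and some macrophages, had 7.53, 4.99 and 4.40 CPM against 3.47, 0.699 and 0.957 CPM (log2 -1.71 ± 0.61, edgeR adjusted p 0.0748). Its groups did not overlap either. Csf1r, the receptor on which macrophage survival rests, had 20.1, 13.3 and 22.3 CPM against 18.8, 3.10 and 5.84 CPM, with high 1 inside the low glucose range (log2 -1.0 ± 0.60, edgeR adjusted p 0.250). With the block these 3 passed, with log2 values of -1.28, -1.94 and -1.32 and adjusted p of 0.021, 0.0114 and 0.0457. Without high 1 they passed as well (-1.54, -2.77 and -2.06), and without high 2 they did not (-0.97, -1.34 and -0.58). Itgam, an integrin of myeloid cells, passed neither fit (log2 -0.51 ± 0.58). Csf1r overlaps Hmgxb3 on the other strand.

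Of the 4 genes for proteins inside macrophages, Cd68 rose and Aif1 fell. Cd68, a glycoprotein of lysosomal membranes, lies on chromosome 11 (69664213 to 69666153, minus strand). It had 5.19, 4.16 and 4.40 CPM at low and 19.3, 7.74 and 11.1 CPM at high glucose (4.58 ± 0.539 and 12.7 ± 5.96, SD, n = 3 each), and every high glucose library was above every low glucose one. The log2 fold change was 1.46 ± 0.36 with an edgeR adjusted p of 0.0225. Leaving out low 1 (1.58), low 2 (1.42) or low 3 (1.46) removed the call, as did limma-voom (1.36), while the direction held.

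Aif1, the calcium-binding protein Iba1 used to stain macrophages, lies within the MHC region of chromosome 17 (35170991 to 35176068, minus strand). It had 24, 10 and 16 counts at low and 4, 7 and 3 counts at high glucose, or 2.01, 1.66 and 2.52 against 0.141, 0.349 and 0.151 CPM. The groups were far apart. The order of the high glucose libraries is not read at such low counts. Aif1 fell by 3.25 ± 0.48 on the log2 scale (edgeR adjusted p 0.00354) and by 2.13 to 3.74 over the alternatives, each of which kept the call where the gene was tested; a filter of 1 CPM in 3 libraries left it out.

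Lyz2, the lysozyme of myeloid cells, had the widest spread within the high glucose group of these 4 genes. Its levels were 75.8, 63.7 and 96.9 CPM at low and 73.2, 4.69 and 9.83 CPM at high glucose, so that high 1 was within the low glucose range and the other two were far below it. The edgeR adjusted p was 0.264 (log2 -1.42 ± 0.89), and 0.0463 with the block (log2 -2.38). Without high 1, Lyz2 passed at a log2 of -3.44, and without high 2 it did not (-0.91). Mpeg1, a pore-forming protein of phagosomes, had 27.9, 17.1 and 25.2 against 51.0, 11 and 18.1 CPM and overlapping groups (log2 0.19 ± 0.53, edgeR adjusted p 0.817).

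The 3 C1q genes lie side by side on chromosome 4 and encode the 3 chains of the recognition molecule of the classical complement pathway. C1qa (136895917 to 136898803, minus strand) had 32.8, 30.4 and 38.2 CPM at low and 13.7, 3.89 and 5.79 CPM at high glucose (33.8 ± 3.99 and 7.79 ± 5.19, SD, n = 3 each). It fell by 2.11 ± 0.44 on the log2 scale (edgeR adjusted p 0.0125), with no overlap of the groups, and of the alternatives only library totals removed the call (-0.86). C1qb had 11.8, 13.5 and 17.9 against 10.6, 2.25 and 3.28 CPM (log2 -1.40 ± 0.56, edgeR adjusted p 0.0999), and C1qc had 13.6, 7.48 and 14.8 against 7.75, 1.55 and 2.87 CPM (log2 -1.55 ± 0.57, edgeR adjusted p 0.0816). High 1 was the highest of its group for all 3 chains and met the low glucose range only in C1qc. Under the block all 3 passed, with adjusted p of 0.00388, 0.0411 and 0.0112, and they passed without high 1, C1qb at -2.37 and C1qc at -2.44. C1qb (-1.03) and C1qc (-1.16) did not pass without high 2.

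Tyrobp and Fcer1g encode adaptors that carry the signal of many myeloid receptors into the cell. Tyrobp had 3.01, 2.49 and 4.09 CPM at low and 3.68, 0.349 and 1.06 CPM at high glucose (log2 -0.89 ± 0.74), and Fcer1g had 5.69, 4.16 and 6.45 against 7.57, 1.60 and 3.33 CPM (log2 -0.38 ± 0.54). Both had overlapping groups and passed neither the edgeR test (adjusted p 0.408 and 0.634) nor the block (0.152 and 0.294), DESeq2 or limma-voom, and 0 of the pair had an unadjusted p under 0.05. High 1 was above the low glucose mean for both, and high 2 was the lowest of all 6 libraries. Without high 1, Tyrobp passed the edgeR test (log2 -2.17) and Fcer1g did not (-1.14). Neither passed without high 2 (-0.41 and 0.01).

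None of the 5 MHC class II genes passed the edgeR test, although 4 of them had an unadjusted p under 0.05 and groups that did not overlap. DESeq2 called 4 of them lower and limma-voom 3. Cd74, the invariant chain, had 408, 444 and 418 CPM in low 1 to 3 and 267, 27.5 and 96.6 CPM in high 1 to 3. The low glucose libraries lay close together (423 ± 18.4, SD, n = 3), whereas the high glucose libraries spread over about an order of magnitude (130 ± 123). The log2 fold change was -1.70 ± 0.69 with an edgeR adjusted p of 0.105, and -2.22 with 0.0328 under the block. Without high 1, Cd74 passed at -2.77, and without high 2 it did not (-1.21).

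The class II chains shared this pattern closely. H2-Ab1, a beta chain (chromosome 17, 34257689 to 34269419, plus strand), had 138, 162 and 127 CPM at low and 63.7, 6.64 and 24.0 CPM at high glucose (log2 -2.17 ± 0.68, edgeR adjusted p 0.0507). H2-Aa, the alpha chain that pairs with it (34282744 to 34287823, minus strand), had 76.7, 98.4 and 81.9 against 43.2, 4.24 and 15.3 CPM (log2 -2.03 ± 0.69, adjusted p 0.0640). H2-Eb1, the beta chain of the second class II molecule (34305867 to 34316674, plus strand), had 89.6, 87.9 and 98.4 against 43.2, 3.74 and 16.7 CPM (log2 -2.11 ± 0.71, adjusted p 0.0616). In each, every high glucose library was below every low glucose library, and the order at high glucose was replicate 1, then 3, then 2.

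These 3 chains lay just outside the threshold, and several fits called them. The matched log2 ratios were -1.11, -4.51 and -2.37 for H2-Ab1, -0.82, -4.38 and -2.39 for H2-Aa and -1.04, -4.38 and -2.52 for H2-Eb1. With the block the 3 passed with adjusted p of 0.0192, 0.0263 and 0.0179. Without high 1 they passed at -3.21, -3.13 and -3.17, and without high 2 at -1.69, -1.54 and -1.61, in the same order. Cathepsin S (Ctss), the protease that trims the invariant chain, had 52.9, 52.7 and 60.7 CPM at low and 60.1, 11.7 and 20.7 CPM at high glucose (log2 -0.84 ± 0.53, edgeR adjusted p 0.269), and its groups overlapped through high 1, without which it passed at -1.77. Ctss did not pass without high 2 (-0.45). H2 genes have close copies in the genome, so how their reads were split is uncertain.

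**Figure D3:**
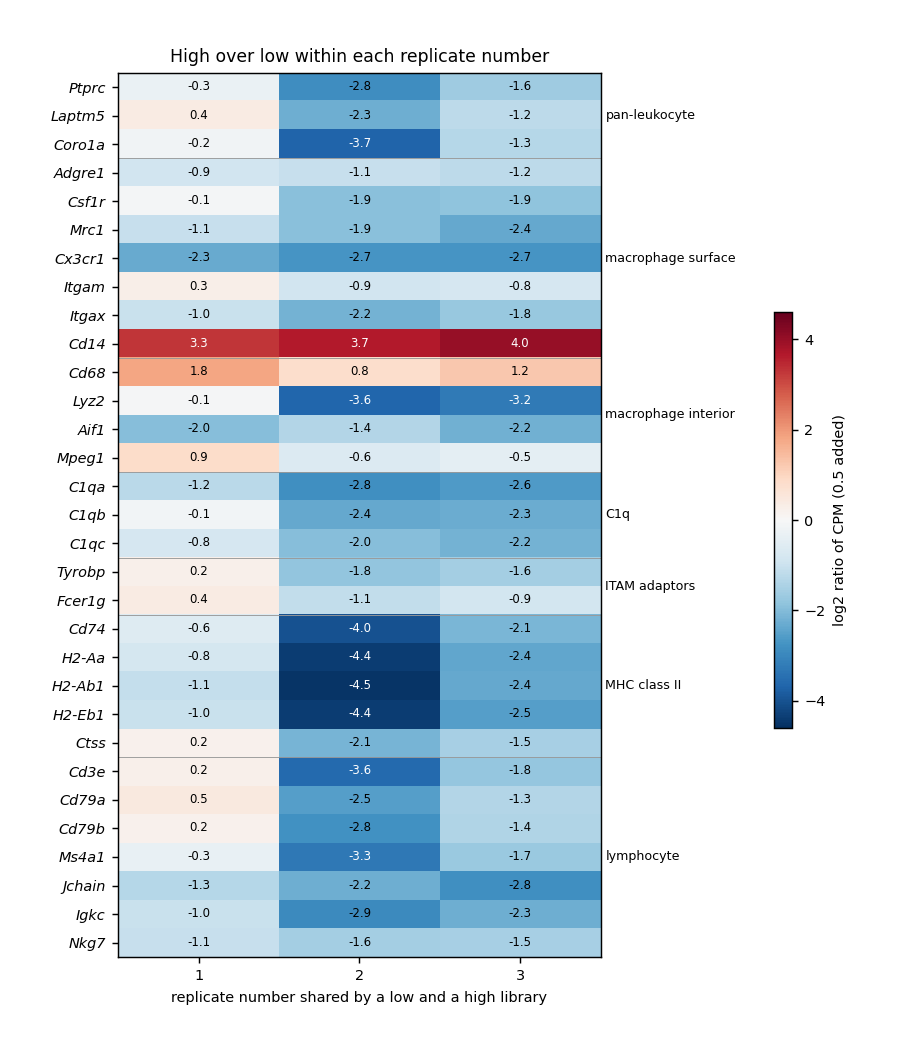
Log2 ratio of CPM (0.5 added to each) of the high to the low glucose library of the same replicate number (columns) for each member (rows); blue is lower and red is higher at high glucose, and each cell prints its value. Column 1 is near 0 for many members (median -0.24), columns 2 and 3 are mostly blue (medians -2.30 and -1.76), and Cd14 and Cd68 are red in all 3.

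Among the 7 lymphocyte genes, Jchain and Igkc fell and Nkg7 was too low to test. Cd79a, Cd79b, Ms4a1 and the T-cell gene Cd3e did not pass. Nor did any of the 14 further B and plasma cell genes described below. Igkc, the constant region of the kappa light chain (chromosome 6, 70726435 to 70726966, plus strand), was the most abundant member, at 705, 565 and 655 CPM at low and 342, 74.4 and 136 CPM at high glucose (642 ± 71.1 and 184 ± 140, SD, n = 3 each). It fell by 1.80 ± 0.52 on the log2 scale with an edgeR adjusted p of 0.0388. Jchain (chromosome 5, 88519809 to 88527891, minus strand) had 133, 61.5 and 109 CPM against 53.6, 12.6 and 15.1 CPM and fell by 1.89 ± 0.58 (edgeR adjusted p 0.0466). Neither gene's groups overlapped. Both calls were near the threshold: leaving out low 1, low 2, low 3, high 2 or high 3 removed each of them, with log2 values from -1.86 to -1.42 for Igkc and from -2.13 to -1.55 for Jchain, and so did library totals (-0.57 and -0.70).

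The B-cell receptor genes followed the library. Cd79a had 19.9, 12.6 and 25.2 CPM at low and 27.4, 1.80 and 9.67 CPM at high glucose (log2 -0.56 ± 0.78), with high 1 the highest and high 2 the lowest of all 6. Its partner Cd79b had a log2 fold change of -0.86 ± 0.75, and Ms4a1, the B-cell surface protein CD20, had 24.4, 14.1 and 32.2 against 19.0, 0.998 and 9.47 CPM (log2 -1.25 ± 0.81). Their edgeR adjusted p were 0.624, 0.429 and 0.283, and with the block 0.166, 0.127 and 0.0519. Cd3e, a chain of the T-cell receptor complex, had 69, 43 and 22 counts at low and 195, 3 and 13 counts at high glucose, so that most of its high glucose counts came from high 1 (log2 -1.06 ± 1.07, edgeR adjusted p 0.494). Without high 1, Cd3e passed at -3.73, and Cd79a (-1.75), Cd79b (-1.87) and Ms4a1 (-2.17) did not pass. None of these genes passed without high 2, with -0.51 for Cd3e, -0.04 for Cd79a and -0.34 for Cd79b. Nkg7, a granule protein of cytotoxic cells, had 10, 6 and 6 counts at low and 4, 0 and 0 at high glucose, a low-to-high ratio of scaled counts of 15.4 (exact 95% interval 5.23 to 61.5, counting error only).

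Per kilobase of exon, the low glucose levels ran from 1210 CPM per kb for Igkc and 252 for Cd74 through 59.9 for Lyz2, 55.4 for H2-Ab1 and 47.3 for H2-Eb1 down to 0.328 for Itgam. Immunoglobulin, class II and lysozyme transcripts therefore led the members in level at low glucose. The genes called with the largest changes (Cd14, Cx3cr1 and Aif1) were among the low ones there, at 1.33, 0.782 and 1.35 CPM per kb. At high glucose Cd14 had 21.1 CPM per kb, beside 22.2 for Lyz2 and 12.3 for H2-Ab1.

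The members were also set against the pan-leukocyte genes of the same library, a ratio that does not depend on library scaling. The 3 genes Ptprc, Laptm5 and Coro1a together had 1484, 491 and 638 counts in low 1 to 3 and 3458, 209 and 747 counts in high 1 to 3. The make-up of this base differed between the groups. Ptprc gave 44.1, 37.5 and 40.3 of each 100 counts at low and 36.1, 36.8 and 34 at high glucose. Laptm5 gave 31.6, 32.6 and 33.7 against 42.1, 49.3 and 38.7, and Coro1a overlapped. Per 100 of these counts Cd14 had 1.42, 3.05 and 2.66 at low and 17.5, 357 and 135 at high glucose, Cd68 had 4.18, 5.09 and 4.39 against 15.8, 74.2 and 29.5, and Mpeg1 had 22.4, 21 and 25.1 against 41.7, 105 and 48.2. All 3 were higher in each high glucose library, and Cd14 and Cd68 were highest in high 2, which had the fewest pan-leukocyte counts. These values are a description without a test.

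In the same ratio Cd74 and the 3 class II chains were lower in each high glucose library, whereas Ctss overlapped, with 42.6, 64.6 and 60.5 per 100 at low and 49.1, 112 and 55.0 at high glucose. H2-Aa had 61.7, 121 and 81.7 per 100 at low and 35.3, 40.7 and 40.6 at high glucose, and Cd74 had 329, 544 and 417 against 218, 264 and 257. The wide spread of these 2 genes over high 1 to 3 in CPM was not seen in this ratio. Cx3cr1 had 2.90, 4.68 and 3.13 against 0.260, 1.44 and 0.134. Cd79a had 16, 15.5 and 25.1 against 22.4, 17.2 and 25.7, and its groups overlapped. Of the 28 members outside the base, 3 were higher and 7 lower without overlap (17.6% and 2.64% of all tested genes). The base ran from 209 to 3458 counts within the high glucose group. Genes that do not follow it spread widely in this ratio, so the member counts are not read against these shares. The 7 were Cx3cr1, Lyz2, Cd74, H2-Aa, H2-Ab1, H2-Eb1 and Nkg7, of which Nkg7 is not among the tested genes. Lyz2 was apart by little, with 61.1 per 100 in low 1 and 59.9 in high 1. C1qa and Igkc overlapped through high 2 (37.3 and 713 per 100).

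**Figure D4:**
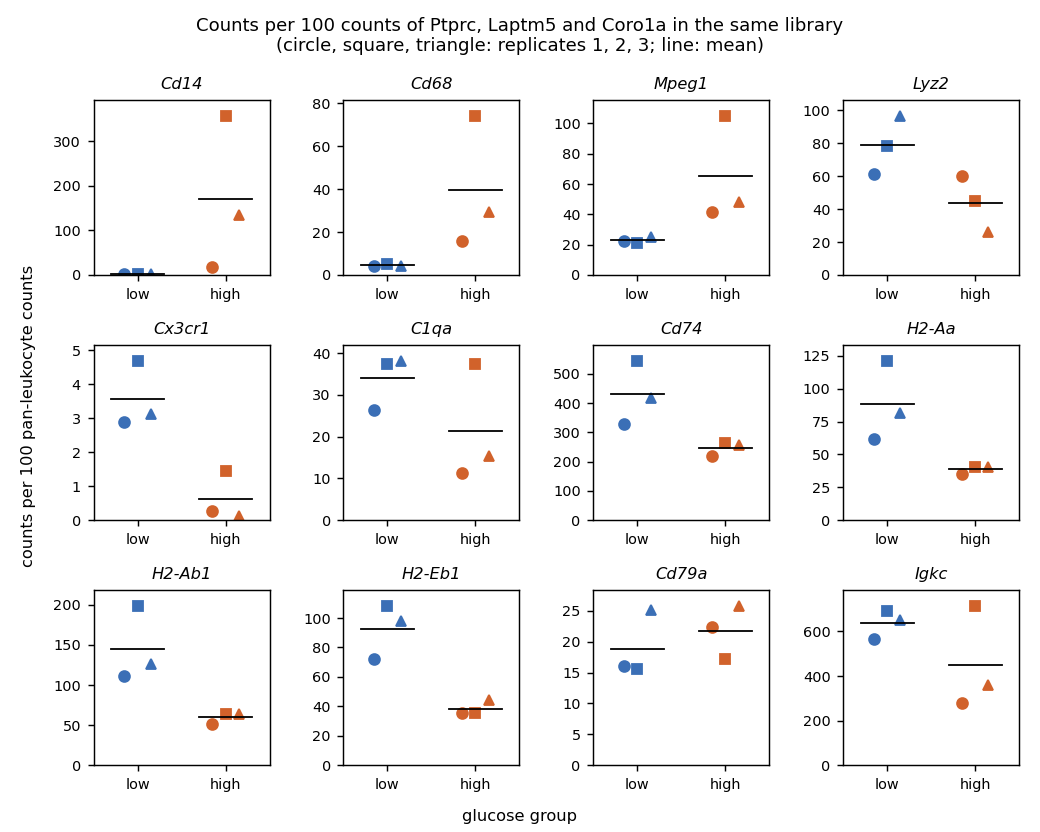
Counts of 12 members per 100 counts of Ptprc, Laptm5 and Coro1a in the same library (vertical linear axes from 0), with 1 symbol per library (circle, square and triangle for replicates 1, 2 and 3) and a line at the group mean. Cd14, Cd68 and Mpeg1 are higher in all 3 high glucose libraries, Cd74, the 3 class II chains, Lyz2 and Cx3cr1 are lower, and C1qa, Cd79a and Igkc overlap.

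Further genes of the same cells were taken from fixed lists. Of 14 tested genes of the class II pathway outside the members, 1 rose and 1 fell, with a median log2 fold change of -0.37 (1 and 6 without high 1, median -1.33). Without high 2, 1 of 15 rose and 1 fell, and the median was -0.18. H2-DMb1, a chain of the peptide exchange factor whose promoter is printed above, had 5.69, 8.64 and 5.82 CPM at low and 1.84, 0.300 and 0.756 CPM at high glucose. It fell by 2.75 ± 0.60 on the log2 scale (edgeR adjusted p 0.0146), a call lost without low 2 (-2.52) or high 3 (-2.59) and with library totals (-1.49). H2-DMb1 would not have passed the low-count filter through the high glucose libraries alone (52, 6 and 15 counts). Lgmn, a lysosomal protease that other cells also express, rose by 1.30 ± 0.32 (edgeR adjusted p 0.0237), a call lost without low 1 (1.41), low 2 (1.12) or low 3 (1.42). Ciita had 7.36, 8.64 and 6.76 against 5.16, 0.449 and 1.51 CPM and did not pass (log2 -1.65, edgeR adjusted p 0.129), but did with the block (-2.07, adjusted p 0.0476).

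Of 35 tested macrophage genes outside the members, 2 rose and 4 fell, with a median of -0.51, and with the block 2 rose and 8 fell. Clec4d passed the low-count filter only through the high glucose libraries and Cd163 only through the low glucose ones. Gpnmb would not have passed through the low glucose libraries alone. These counts are therefore not read against other lists. Without high 1, 16 of 36 fell with a median of -1.53, and without both replicate 1 libraries 11 of 32 fell with a median of -1.33. Without high 2, 5 of 37 fell and 3 rose, with a median of -0.08. The scavenger receptor gene Cd163 had 2.59, 2.33 and 6.29 CPM at low and 0.248, 0.0499 and 0 CPM at high glucose, and fell by 4.96 ± 0.85 on the log2 scale (edgeR adjusted p 0.00615). Mertk, a receptor for the uptake of dying cells, had 19.8, 12.8 and 7.86 against 3.25, 1.25 and 1.76 CPM and fell by 2.68 ± 0.46 (edgeR adjusted p 0.00640), a call lost with library totals (-1.59). Both genes, and the phosphatidylserine receptor gene Timd4 (log2 -2.74 ± 0.71), mark resident macrophages, as Mrc1 and Cx3cr1 do. Timd4 lost its call without low 1 (-2.43), low 3 (-2.58), high 2 (-2.43) or high 3 (-2.37), and the actin-bundling gene Lcp1 (log2 -1.56 ± 0.39) without low 1, low 2, low 3 or high 3; library totals removed both calls.

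The 2 increases in that list were Gpnmb and Clec4d. Gpnmb, a membrane glycoprotein of lipid-laden macrophages and other cells, had 2.09, 0.831 and 2.04 CPM at low and 63.4, 8.34 and 17.2 CPM at high glucose (log2 4.11 ± 0.84, edgeR adjusted p 0.0118), a call lost without low 2 (3.86) and with limma-voom (3.66). Clec4d, a myeloid lectin receptor, had 3 counts at low and 349 at high glucose, a ratio of scaled counts of 41.5 (exact 95% interval 14.1 to 202, edgeR adjusted p 0.00638). Both were higher in each high glucose library, as Cd14 and Cd68 were.

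Of 7 tested growth and attraction signals of myeloid cells and their receptors, Csf1 and Csf3 rose and Cx3cl1 fell. Csf1, the growth factor that acts on Csf1r, had 12.4, 9.14 and 11.8 CPM at low and 35.7, 30.1 and 38.7 CPM at high glucose, similar in all 3 high glucose libraries (log2 1.64 ± 0.19, edgeR adjusted p 0.00153). Cx3cl1, the ligand of Cx3cr1, had 19.2, 16.5 and 10.2 against 4.39, 3.64 and 4.13 CPM and fell by 1.92 ± 0.27 (edgeR adjusted p 0.00310), a call lost with library totals (-0.83). Csf3, the granulocyte growth factor, had 1 count at low and 487 at high glucose (ratio of scaled counts 174, exact 95% interval 31.1 to 6880). Csf3 passed the low-count filter only through the high glucose libraries, so the increases of this list are not read against other lists. Cells other than leukocytes can make these 3 ligands, and their source was not measured.

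Of 12 genes of macrophage activation, 7 passed the low-count filter and 4 of these rose. Acod1 and Il6 had 3 and 2 counts over the low glucose libraries and Nos2 had 2, 2 and 0. These genes, and Tnf, which was not called, passed the filter only through the high glucose group. Ptgs2, with 10, 3 and 6 counts at low glucose, would not have passed through that group alone. The count is therefore not read against other lists. Without the filter 5 of the 12 rose and 1 fell, with a median log2 of 1.58. Nos2, the inducible nitric oxide synthase, had 0.167, 0.332 and 0 CPM at low and 5.41, 1.80 and 4.18 CPM at high glucose (log2 4.47 ± 0.76, edgeR adjusted p 0.00613). Ptgs2, the inducible cyclooxygenase, had 0.837, 0.499 and 0.943 against 39.6, 19.5 and 26.4 CPM (log2 5.19 ± 0.38, edgeR adjusted p 5.70e-04). The cytokine gene Il6 had 2 counts at low and 901 at high glucose (ratio of scaled counts 161, exact 95% interval 44.4 to 1330, edgeR adjusted p 0.00137). Acod1, which makes itaconate in activated macrophages, had 3 and 155 counts (ratio 18.4, exact 95% interval 6.19 to 90.4, edgeR adjusted p 0.0350) and lost its call without low 1 (3.10), low 2 (3.50) or high 3 (4.04), with log2 values close to the 3.94 over all libraries. Nos2, Il6 and Ptgs2 can also be expressed by beta cells and fibroblasts under inflammatory signals.

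Of 12 tested T and NK genes, 1 fell: the granzyme gene Gzma, with 17.2, 12 and 4.09 CPM at low and 1.03, 0.150 and 0.101 CPM at high glucose (log2 -4.59 ± 0.86, edgeR adjusted p 0.00904). Gzma would not have passed the low-count filter through the high glucose libraries alone (29, 3 and 2 counts). The list's median was -0.86, and 4 of its genes fell with the block. Without high 1, 10 of the 12 fell and the median was -2.58, and without high 2, 1 of 14 fell with a median of -0.42. None of 14 further B and plasma cell genes passed edgeR, DESeq2 or limma-voom, and 0 had an unadjusted p under 0.05 (median -0.67). Of these, 5 fell without high 1 (median -1.90) and 0 without high 2 (median -0.20). Ighm, the heavy chain of IgM, had 987, 596 and 1060 CPM at low and 1030, 30.4 and 258 CPM at high glucose, with high 1 in the low glucose range (log2 -1.0 ± 0.98, edgeR adjusted p 0.482). Iglc1, a lambda light chain, had 25.9, 3.49 and 10.5 against 94.7, 3.59 and 4.38 CPM, a log2 fold change of 1.33 (edgeR adjusted p 0.468) that became -1.78 without high 1 and passed in neither case. None of 4 tested dendritic genes passed edgeR or limma-voom (2 had an unadjusted p under 0.05, and DESeq2 called 1 higher and 1 lower), but without the filter 1 of the 10 on the list rose and 5 fell. The most abundant were Cd24a (log2 0.39) and Zbtb46 (log2 -0.80), of which Cd24a is also expressed by epithelium. Of 12 neutrophil and mast cell genes, only S100a9 was high enough to test (log2 0.49, edgeR adjusted p 0.772), and 2 had no count in any library.

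**Figure D5:**
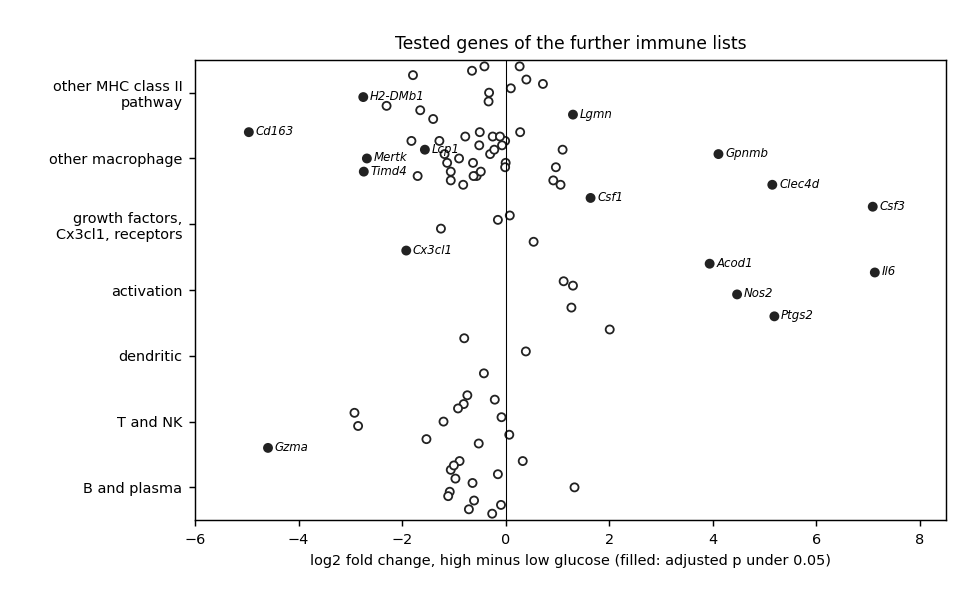
Log2 fold change (high minus low glucose, horizontal axis) of the tested genes on the further leukocyte lists, 1 row of points per list, filled where the edgeR adjusted p was under 0.05. The tested activation genes lie to the right, most genes of the other lists lie between -2 and 1, and the called decreases are Cd163, Mertk, Timd4, Lcp1, H2-DMb1, Cx3cl1 and Gzma.

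Markers of other cells moved in the same libraries. All 12 intestinal epithelium genes fell, with sums of 5480, 4350 and 1660 CPM at low and 160, 37.2 and 28.2 CPM at high glucose. Sis, Lct, Mep1a and Mep1b among them passed the low-count filter only through the low glucose libraries. Of 15 stellate and endothelial genes 5 fell, with sums of 643, 538 and 664 against 531, 170 and 257 CPM, the same order of high glucose libraries as in the members (1 over 3 over 2). Of 9 duct genes 5 rose. The part of these shifts in the members' values was not tested.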

How the data were processed

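STAR 2.7.3a, HTSeq 0.6.1p1 and GRCm38 are named in the submitters' processing notes. The authors deposited raw counts, not normalized, of each gene in each library. The strand setting and annotation release are not stated in those sources. Poly-A RNA was sequenced, per the labels' protocols. Names came from GENCODE M21 (GRCm38), which named all but 495 rows, and exonic lengths too.

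High and low glucose were compared with edgeR 4.0.16 (R 4.3.3): TMM sizes, filterByExpr (minimum count 10, minimum total 15), quasi-likelihood F-test, Benjamini-Hochberg adjustment over all genes tested, threshold 0.05. Each SE is the size of the log2 fold change over the root of its F statistic. CPM used TMM-scaled sizes. Ratios of low counts carry exact conditional 95% intervals, which cover counting error only. Nothing states that libraries came from separate animals, so p-values measure only how these samples spread, which may be technical.

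Replicate numbers are shared between groups. Correlations of deviations from the group means were 0.40, 0.26 and 0.25 for same-numbered libraries and -0.31 to 0.07 for others, so a fit with the number as a block is given; no label states a pairing, and deviations within a group sum to 0.

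All 31 members are named. From each further list up to 4 called genes per direction with the smallest p are named, or the 2 most abundant where none passed; Ciita was added. The members, lists and promoter letters were chosen with earlier results of these data known. Alternatives were other scalings and filters, DESeq2 1.42.0, limma-voom (limma 3.58.1), a robust fit, the block, and each library left out. Figures were drawn with matplotlib 3.10.9.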

Additional observations from a re-analysis of the deposited data

How the results depend on the processing

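The number of genes changed was 3848 with edgeR, 8965 with library totals, 2023 with hormone and granule gene scaling, 4670 with the replicate block, and 1743 to 5685 with each library left out in turn. It was 4433 of 23293 without a filter, 4535 with DESeq2, 3446 with limma-voom and 5628 without both replicate 1 libraries. The 6 members called lower became 2 with library totals, 13 with hormone and granule gene scaling, 10 without a filter, 17 with the replicate block, 14 with DESeq2, 10 with limma-voom, 20 without both replicate 1 libraries (chosen after seeing the data) and 3 to 22 with each library left out. The 2 called higher became 1 with limma-voom and 1 to 2 with each library left out. The members' median of -1.26 became -0.04 with library totals and -2.36 to -0.82 with each library left out. DESeq2 size factors, TMM without the 20 most abundant genes, acinar genes left out and the robust edgeR fit gave the members' counts within 1.5 times. No called member reversed in any fit. The causes were not tested. Nkg7, Aif1, Cx3cr1 and Itgam had the fewest counts of the members and are limited most by depth.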

Other observations

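Several markers of dendritic cells and resident macrophages lay under the low-count filter and were picked out after their counts had been seen. Xcr1, a chemokine receptor of cross-presenting dendritic cells, had 41 counts at low and 1 at high glucose, summed over each group, a low-to-high ratio of scaled counts of 115 (exact 95% interval 19.5 to 4650). Clec9a, a receptor for dead cells on the same dendritic cells, had 33 and 4 counts (ratio 23.1, interval 8.22 to 89.8). The lectin gene Clec10a had 36 and 1 (ratio 101, interval 17 to 4090), and Siglech, a marker of plasmacytoid dendritic cells, had 23 and 1 (ratio 64.4, interval 10.5 to 2650). Cd209a had 30 counts at low and 0 at high glucose, at least 28.0-fold lower against a floor of 3 counts over the group. The folate receptor gene Folr2 of resident macrophages had 42 and 10 counts (ratio 11.8, interval 5.81 to 26.3). Other genes of the dendritic list did not share this direction: Batf3 had 3 and 13 counts, a high-to-low ratio of 1.55 (interval 0.425 to 8.46), and Ccr7, a chemokine receptor of migrating dendritic cells and lymphocytes, had 3.18, 2.83 and 2.04 CPM at low and 25.5, 2.80 and 4.38 CPM at high glucose, with groups that overlapped through high 2 (log2 2.01, edgeR adjusted p 0.112). Also higher at high glucose, Clec4e, a lectin receptor paired with Clec4d, had 3 and 151 counts, a high-to-low ratio of 18.0 (interval 6.03 to 88.1), and the cytokine gene Il1a had 8 and 126 (ratio 5.62, interval 2.77 to 13.3). The intervals cover counting error only, not the spread between libraries.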
